A study of Homo sapiens with 24 samples.

Results

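A set of 10 genes that mark columnar, goblet and intestinal epithelium was read in 2 esophageal adenocarcinoma cell lines: AGR2, TFF1, TFF2, TFF3, MUC1, MUC13, MUC5AC, CDX2, HNF4A and VIL1. They were chosen by gene name, are 10 of the 58735 genes in the count table, and each name stood on 1 row. Of the 10, 9 passed the filter on low counts in each fit, and TFF3 did not. Between the untreated Cas9 controls, CDX2 was higher in OE33, and HNF4A, at only 0.31 to 2.42 CPM, was higher in SK-GT-4. These were 2 of 9 tested members past the threshold, or 22.2%, where 24.4% of all genes tested passed. In untreated SK-GT-4 cells, AGR2, TFF1 and HNF4A were higher in the cGAS knockout clone than in the Cas9 control, in calls that rested on single libraries. MUC13 was called too, but was tested only because of its reads in the knockout. In the main fit, none of the 9 tested genes passed the test for a response to the MPS1 inhibitor. At most 1 gene of all those tested did in each comparison. AGR2 passed in OE33 Cas9 in 1 alternative fit. The study, by another method, reports many responding genes in both lines.

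Both lines, OE33 and SK-GT-4, derive from human esophageal adenocarcinoma. Each was used as a Cas9 control and as a cGAS knockout (cGASKO) made with Cas9, so all groups carry Cas9. Cells received DMSO or reversine, which blocks MPS1, a kinase of the mitotic spindle checkpoint (MPS1i), at 500 nM for 48 hours. Each of the 8 groups holds 3 libraries, 1 from each batch, which makes 24 libraries with total counts between 15561268 and 25284177. The study calls both the Cas9 and the cGASKO cells clones. No source used here says that a group holds more than 1 clone, so loss of cGAS and clonal differences cannot be told apart.

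Columnar epithelium replaces squamous epithelium in Barrett's esophagus, the precursor of esophageal adenocarcinoma, and can carry gastric and intestinal features together. CDX2 and HNF4A are transcription factors of the intestinal program, and HNF4A also acts in liver and stomach. Goblet and mucous cells secrete gel-forming mucins such as MUC5AC together with trefoil peptides, and AGR2 is an endoplasmic reticulum disulfide isomerase needed for mucin folding. MUC1 and MUC13 are membrane-bound mucins of the apical surface, and VIL1 is an actin-bundling protein of the microvillus.

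The genes lie on 8 chromosomes in the GRCh38 coordinates of the count table. AGR2 is at chr7:16791811-16833433, MUC1 at chr1:155185824-155192916, MUC13 at chr3:124905442-124953819, MUC5AC at chr11:1157953-1201138, CDX2 at chr13:27962137-27971139, HNF4A at chr20:44355700-44434596 and VIL1 at chr2:218419092-218453295. The 3 trefoil genes sit side by side on the minus strand, with TFF3 at chr21:42311667-42315651, TFF2 at chr21:42346357-42351128 and TFF1 at chr21:42362282-42366594, within 55 kb. The last 3045 bases of VIL1 overlap USP37 on the opposite strand, and the strand setting of the counting is not given in the sources used here, so reads there cannot be assigned to 1 of them.

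The promoters printed here run from 250 bases before to 50 bases after a transcript start listed by RefSeq, 5′ to 3′ on the strand of the gene, in lower case. Those of AGR2, MUC13 and CDX2 lie inside the gene spans given above, not at their outermost start. RefSeq (GRCh38.p14) gave promoters for 5 of the 10 genes, and those of AGR2, MUC13, CDX2 and HNF4A are printed because these genes carry the differences between clones and lines. Capitals mark matches on either strand to any of 4 short motifs, which were also searched in all 35116 promoters of the same length. For HNF4A the letters were CAAAGTCCA. For zinc finger proteins of the endoderm, the GATA family, the motif searched was AGATAA. The forkhead proteins of the FOXA family were searched by the letters TGTTTAC. Finally, the caudal homeobox family, to which CDX2 itself belongs, was searched with CNATAAA, where N stands for any base. No marked stretches overlapped each other.
HNF4A, distal start, chr20:44355449-44355748, plus strand: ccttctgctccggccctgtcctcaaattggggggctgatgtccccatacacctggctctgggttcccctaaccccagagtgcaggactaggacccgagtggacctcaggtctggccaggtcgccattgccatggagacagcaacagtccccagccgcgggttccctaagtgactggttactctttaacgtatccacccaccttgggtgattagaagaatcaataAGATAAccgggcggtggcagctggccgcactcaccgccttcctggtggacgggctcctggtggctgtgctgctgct
CDX2, chr13:27969266-27969565, minus strand: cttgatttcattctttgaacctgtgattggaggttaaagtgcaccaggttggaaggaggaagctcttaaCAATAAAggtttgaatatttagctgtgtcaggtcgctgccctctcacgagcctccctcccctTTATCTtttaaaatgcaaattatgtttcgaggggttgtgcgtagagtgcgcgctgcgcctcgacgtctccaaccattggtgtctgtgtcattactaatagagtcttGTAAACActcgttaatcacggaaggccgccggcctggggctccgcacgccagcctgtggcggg
AGR2, chr7:16804950-16805249, minus strand: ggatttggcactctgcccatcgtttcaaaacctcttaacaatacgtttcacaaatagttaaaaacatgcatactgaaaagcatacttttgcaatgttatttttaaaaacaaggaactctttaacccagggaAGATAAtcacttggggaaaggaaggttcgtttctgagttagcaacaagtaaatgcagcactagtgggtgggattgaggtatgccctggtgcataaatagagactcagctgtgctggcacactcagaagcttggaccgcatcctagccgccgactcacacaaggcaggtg
MUC13, chr3:124934702-124935001, minus strand: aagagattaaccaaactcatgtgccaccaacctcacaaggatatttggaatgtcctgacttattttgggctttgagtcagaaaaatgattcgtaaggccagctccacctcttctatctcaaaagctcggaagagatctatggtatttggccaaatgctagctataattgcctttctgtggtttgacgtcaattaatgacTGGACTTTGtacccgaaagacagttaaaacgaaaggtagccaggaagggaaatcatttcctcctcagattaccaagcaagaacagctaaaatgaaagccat

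The MUC13 window held 1 HNF4A match on its minus strand, whose first printed base stands 51 bases before the annotated start. Such a match was found in 0.384% of all promoters. It held no other match. The distal HNF4A window held 1 GATA match, found in 10.3% of promoters, and the proximal one held no match. The CDX2 window held 1 match each to the GATA, FOXA (3.42% of promoters) and CDX letters (9.73% of promoters). The AGR2 window held 1 GATA match and no other. A match describes letters and does not show a binding site. Both MUC1 entries, which differ by 6 bases in position, held no match to any of the 4 motifs.

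Levels are given in CPM, read counts scaled to library size, with TMM factors over all 24 libraries. The targeted gene was read first. CGAS had 30.2 to 35.2 CPM in OE33 Cas9 DMSO and 28.9 to 41.6 CPM in OE33 Cas9 MPS1i. OE33 cGASKO libraries had 2.31 to 2.82 CPM, except the library labelled cGASKO DMSO replicate 2, which had 15.6 CPM. The SK-GT-4 libraries had 14.7 to 26.1 CPM of CGAS in Cas9 and 2.22 to 6.09 CPM in cGASKO. Between clones in OE33 DMSO, tests of AGR2, CDX2, MUC1, TFF2 and the other genes named as called are given with and without that replicate. Libraries of a group also differed in general. Between SK-GT-4 cGASKO DMSO replicate 1 and the other replicates, the chi-square per gene was 570 and 470, against 105 between those others. For Cas9 MPS1i replicate 2 it was 205 and 216 against 42.8, and for cGASKO MPS1i replicate 1 it was 234 and 171 against 31.5. Of the 5 genes of simple epithelium (EPCAM, CDH1, KRT8, KRT18, KRT19), none was at 0 in any group. Their summed level was between 16301 and 22543 CPM in OE33. In SK-GT-4 it was between 3678 and 8636 CPM in Cas9 and between 9021 and 19356 CPM in cGASKO libraries. Among 10 genes of blood, endothelium and fibroblasts, 4 to 7 were at 0 in every library of an OE33 group and 1 to 3 in SK-GT-4, with summed levels of 0.486 to 7.09 CPM in OE33 and 11.5 to 95.5 CPM in SK-GT-4.

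**Figure D1:**
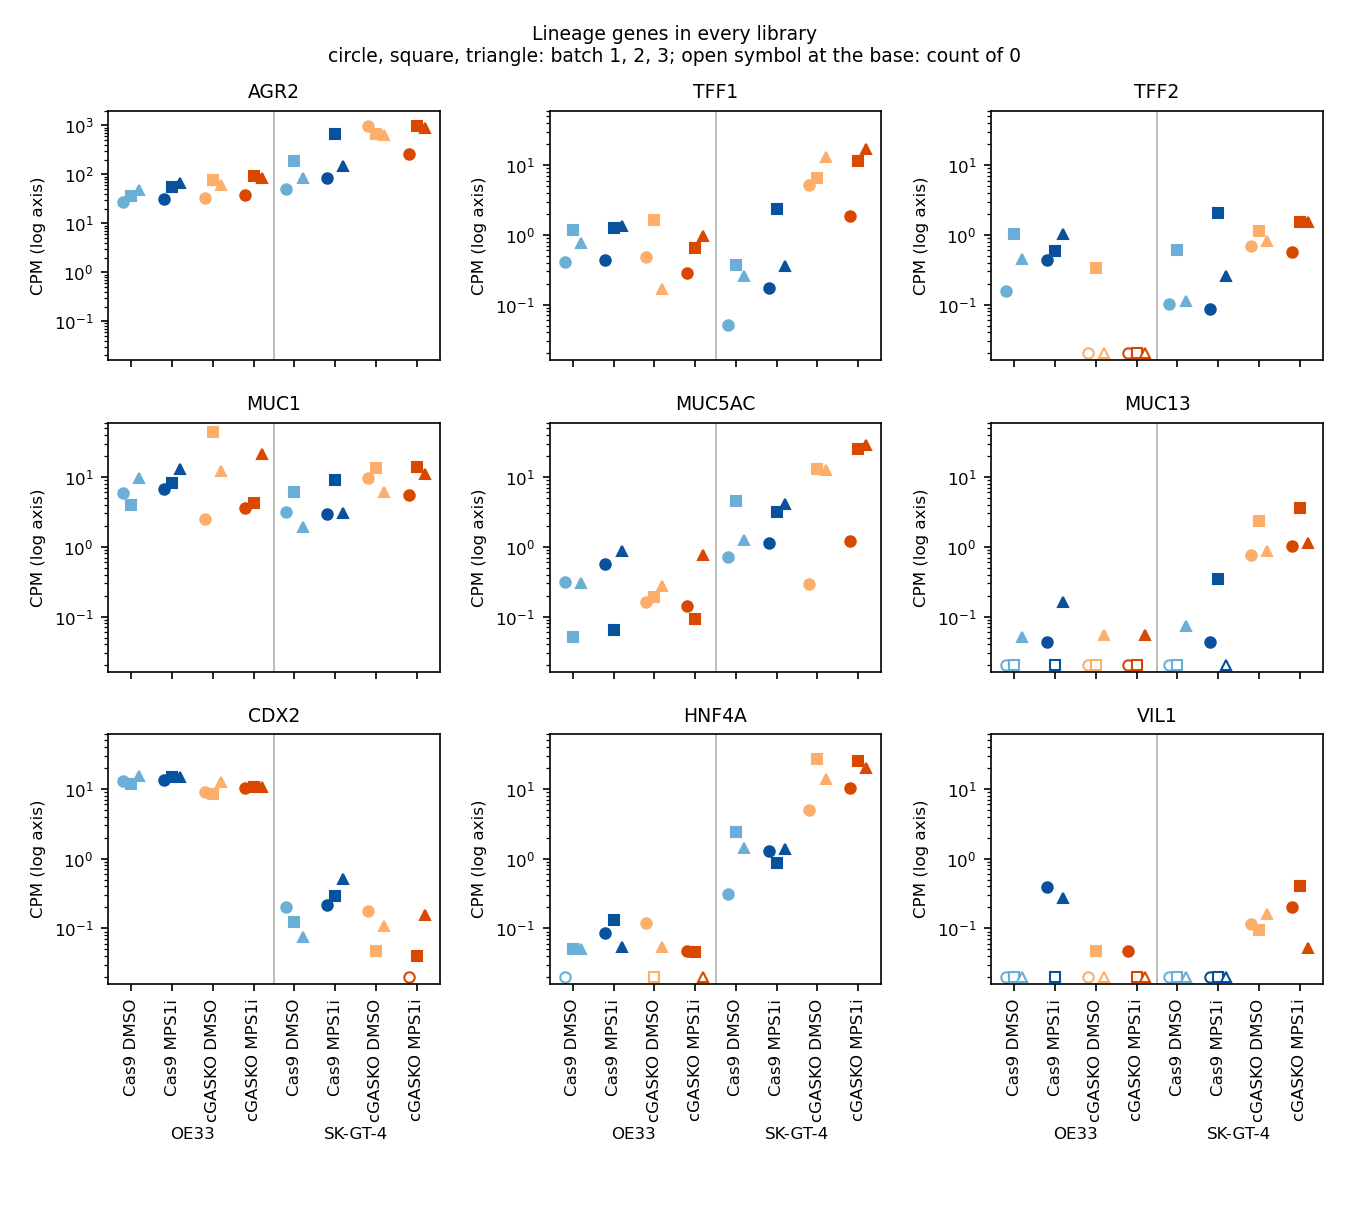
Levels of 9 of the 10 genes in each of the 24 libraries, as CPM on a log axis (TFF3, at 0 throughout, is left out). Color marks genotype and treatment, shape marks the batch, and open symbols at the base are counts of 0. CDX2 stood between 8.37 and 15.2 CPM in OE33 and at most at 0.52 CPM in SK-GT-4, while HNF4A was at most at 0.13 CPM in OE33.

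Per kilobase of gene length, AGR2 was the most abundant of the 10 in every group shown here. In OE33 Cas9 DMSO, it had 13.1 ± 3.79 CPM per kb (SD, n = 3), followed by CDX2 at 3.23 ± 0.432, TFF1 at 1.42 ± 0.696, MUC1 at 1.39 ± 0.613 and TFF2 at 0.657 ± 0.533 CPM per kb. The last 3 overlapped in their spread. MUC5AC, MUC13 and HNF4A had at most 0.0127 CPM per kb on average. In SK-GT-4 Cas9 DMSO, AGR2 had 37.6 ± 24.7 CPM per kb and MUC1 0.781 ± 0.445. TFF1, TFF2, HNF4A and MUC5AC, between 0.123 and 0.412 CPM per kb on average, did not differ beyond their spread, and CDX2 had 0.0325 ± 0.0159. In SK-GT-4 cGASKO DMSO, AGR2 reached 267 ± 60.6 and TFF1 14.9 ± 7.74 CPM per kb, ahead of MUC1 (2.07 ± 0.784), HNF4A (2.06 ± 1.48) and TFF2 (1.07 ± 0.28). TFF1 so moved from the level of MUC1 in Cas9 to above it in the knockout, whereas HNF4A and MUC1 did not differ beyond their spread.

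The first comparison asks how the untreated controls of the lines differ. CDX2 had 13.1, 11.6 and 15.2 CPM in OE33 Cas9 DMSO, against 0.20, 0.12 and 0.07 CPM in SK-GT-4 Cas9 DMSO. HNF4A showed the opposite order. It had 0, 1 and 1 reads in the OE33 libraries against 6, 59 and 38 reads in SK-GT-4, where the level was 0.31, 2.42 and 1.41 CPM. Neither gene overlapped between the lines. CDX2 was higher in OE33 by 6.63 on the log2 scale (SE 0.43, edgeR's quasi-likelihood test, adjusted p = 3.0e-11). For HNF4A, the ratio of the summed counts was 42.6 toward SK-GT-4 (95% counting interval 11.5 to 357, over 103 and 2 reads), with an edgeR adjusted p of 2.7e-05. These were the 2 of 9 tested members past the threshold, an adjusted p of at most 0.01, in a comparison where 24.4% of the 25181 genes tested passed and the median over all genes was −0.14.

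None of the mucous members passed, and they did not share a direction. AGR2 had 27.0, 36.3 and 48.4 CPM in OE33 and 51.0, 186 and 84.0 CPM in SK-GT-4. All OE33 libraries were below all SK-GT-4 libraries, and the log2 difference of OE33 over SK-GT-4 was −1.34 (SE 0.44, edgeR adjusted p = 0.020). MUC5AC, a gel-forming mucin of gastric surface cells, had 0.31, 0.05 and 0.30 CPM in OE33 and 0.72, 4.48 and 1.26 CPM in SK-GT-4 (log2 difference −3.12, SE 1.03, edgeR adjusted p = 0.022). TFF1 was ordered the other way, with 0.41, 1.18 and 0.76 CPM in OE33 and 0.05, 0.37 and 0.26 CPM in SK-GT-4 (log2 difference 1.82, SE 0.74, edgeR adjusted p = 0.061). MUC1, TFF2 and MUC13 had edgeR adjusted p values of 0.30, 0.33 and 0.85. VIL1 was at 0 in all 6 of these libraries, and TFF3 was listed at 0 in all 24, which allows a level of at most 0.111 to 0.195 CPM per library (3 counts, counting error only).

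Other genes of these lineages are given beside the share of all genes called, 24.4%. The share was 22.2% of the tested members, 18.2% of the goblet list and 35.7% of the brush border list, and between 44.4% and 100% in the other lists. Of 15 further foregut and hindgut transcription factors, 12 were tested, 5 were higher in OE33 and 1 was lower. GATA4, a factor of stomach and foregut endoderm, had 13.1, 13.6 and 14.9 CPM in OE33 Cas9 DMSO and at most 0.15 CPM in SK-GT-4 (log2 difference 6.73, edgeR adjusted p = 3.0e-11). SOX2, a factor of squamous esophagus and stomach, was lower in OE33 (6.78 to 13.5 against 15.1 to 40.8 CPM; log2 difference −1.39, edgeR adjusted p = 2.2e-04). Of 10 gastric genes, 9 were tested, with 3 higher in OE33, CLDN18 and ANXA10 among them, and 1 lower, the gel-forming mucin MUC5B (0.05 to 0.36 against 1.48 to 7.89 CPM). Of 14 goblet and secretory genes, 11 were tested, with 1 higher (FCGBP, with 8.31 to 16.0 CPM in OE33 and at most 0.04 CPM in SK-GT-4) and 1 lower (CREB3L1, with at most 0.10 CPM in OE33 and 27.4 to 43.2 CPM in SK-GT-4). Of 8 other transmembrane mucins, 5 were tested and 3 were higher, MUC20 and MUC4 among them. Of 21 brush border genes, 14 were tested, with 4 higher (ANPEP, DPP4, EZR, PLS1) and 1 lower (MYO7B), and of 6 crypt genes 3 were higher and 1, PROM1, was lower. All 5 simple epithelial genes were higher in OE33. Of 13 squamous genes, 6 were higher in OE33 and 4, TP63 and KRT4 among them, were lower, and 5 of 8 tested genes of blood, endothelium and fibroblasts were lower in OE33. The part of these marker differences in the members' values was not tested.

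The second comparison sets the untreated knockout clone of SK-GT-4 against its Cas9 control. AGR2 had 51.0, 186 and 84.0 CPM in Cas9 and 958, 675 and 646 CPM in cGASKO. All 3 knockout libraries stood above the highest control. In bulk RNA, a change in the share of cells with a transcript and one in its amount per cell cannot be told apart. The mean rose 7.11-fold, and the fitted log2 fold change was 3.24 (SE 0.59, 95% interval 1.95 to 4.53, edgeR adjusted p = 0.0098). That p lies just inside the threshold.

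TFF1, a trefoil peptide of gastric surface mucous cells, rose most among members with reads in every library of both groups. It had 0.05, 0.37 and 0.26 CPM in Cas9 and 5.09, 6.45 and 13.1 CPM in cGASKO (log2 fold change 5.44, SE 0.77, edgeR adjusted p = 0.0026). HNF4A had 0.31, 2.42 and 1.41 CPM in Cas9 and 4.98, 26.5 and 13.7 CPM in cGASKO (log2 fold change 3.41, SE 0.51, edgeR adjusted p = 0.0037). Neither gene overlapped between the clones, and each rose in 3 of 3 batches.

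MUC13, whose promoter carries the HNF4A letters shown above, had 0, 0 and 2 reads in Cas9 and 13, 49 and 16 reads in cGASKO. The ratio of the summed counts was 48.8 (95% counting interval 13.1 to 410), with an edgeR adjusted p of 0.0078. MUC13 and VIL1 passed the filter in SK-GT-4 only through the knockout libraries, so a difference in these genes was built into their being tested. VIL1 had no read in the 6 Cas9 libraries and 2, 2 and 3 reads in cGASKO DMSO (edgeR adjusted p = 0.20), at or under the floor of 3 counts per library.

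Of the 7 members with reads in at least 4 libraries of each clone, 3 were called, all higher in the knockout. Of the 22782 genes tested, which were not held to that minimum in each clone, 1.76% were called in either direction and 1.1% were called higher. The median log2 fold change of the 7 was 2.01 and that of all genes 0.03. MUC1 did not overlap either, with 3.17, 6.0 and 1.89 CPM in Cas9 and 9.60, 13.6 and 6.18 CPM in cGASKO, but missed the threshold (log2 fold change 1.47, SE 0.36, edgeR adjusted p = 0.037). TFF2, the trefoil peptide of mucous neck cells, had 0.10, 0.62 and 0.11 against 0.70, 1.15 and 0.81 CPM (edgeR adjusted p = 0.17). MUC5AC had 0.72, 4.48 and 1.26 CPM in Cas9 and 0.29, 13.1 and 12.5 CPM in cGASKO, so batch 1 ran against the other two (edgeR adjusted p = 0.32). CDX2 stayed between 0.05 and 0.20 CPM in these 6 libraries (log2 fold change −0.33, 95% interval −2.43 to 1.78, edgeR adjusted p = 0.90).

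**Figure D2:**
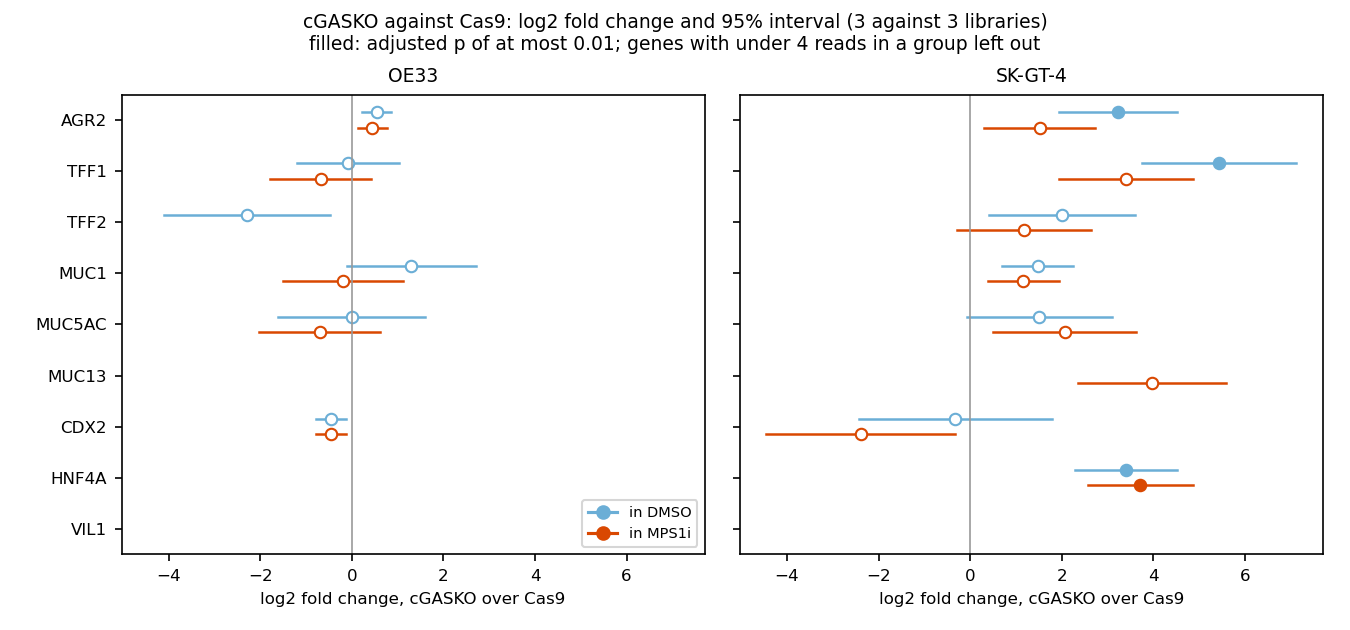
Fitted log2 fold changes of cGASKO over Cas9 with 95% intervals, in DMSO and in MPS1i, for OE33 (left) and SK-GT-4 (right), 3 against 3 libraries each. Filled points have an adjusted p of at most 0.01. Members with under 4 reads in a group are left out, so the calls of MUC13 in SK-GT-4 DMSO and of TFF2 in OE33 MPS1i do not appear. In SK-GT-4, HNF4A lay at 3.41 and 3.72, and in OE33 AGR2 lay at 0.54 and 0.45.

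Under MPS1i, HNF4A was the 1 of 9 tested members called between the SK-GT-4 clones, and it was again higher in the knockout (1.41% of 22782 genes tested were called). It was also the 1 call among the 7 members with reads in at least 4 libraries of each clone. Their median log2 fold change was 1.52, and that of all genes −0.03. HNF4A had 1.29, 0.87 and 1.39 CPM in Cas9 MPS1i and 10.4, 25.3 and 19.6 CPM in cGASKO MPS1i (log2 fold change 3.72, SE 0.52, edgeR adjusted p = 0.0028). The groups were far apart, and the control libraries lay closer together than in DMSO. MUC13 had 1, 6 and 0 reads against 25, 87 and 22 (log2 fold change 3.97, SE 0.74, edgeR adjusted p = 0.012). TFF1 had 0.17, 2.37 and 0.36 against 1.87, 11.6 and 16.9 CPM (log2 fold change 3.41, SE 0.67, edgeR adjusted p = 0.016). Both lay just outside the threshold.

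AGR2 had 84.3, 669 and 152 CPM in Cas9 MPS1i and 267, 974 and 868 CPM in cGASKO MPS1i (log2 fold change 1.52, SE 0.55, edgeR adjusted p = 0.16). Here the groups overlapped, because Cas9 MPS1i replicate 2 stood above knockout replicate 1. That Cas9 library was also the highest of the 6 Cas9 libraries in TFF1, TFF2, MUC1, MUC13 and EPCAM. Without it, AGR2 differed by 2.24 (edgeR adjusted p = 0.020), and TFF1 (4.88, adjusted p = 5.6e-04) and MUC13 (adjusted p = 0.0062) passed beside HNF4A. In turn, HNF4A missed the threshold without Cas9 MPS1i replicate 3 (adjusted p = 0.030) or cGASKO MPS1i replicate 1, 2 or 3 (0.022, 0.014 and 0.020), and differed by 4.47 without Cas9 MPS1i replicate 1. MUC5AC had 1.12, 3.12 and 4.12 against 1.22, 25 and 28.8 CPM (edgeR adjusted p = 0.14). MUC1, with 2.92, 9.13 and 3.04 against 5.52, 13.8 and 10.9 CPM, and TFF2, with 0.09, 2.08 and 0.26 against 0.57, 1.55 and 1.55 CPM, overlapped between the clones (edgeR adjusted p = 0.096 and 0.37). VIL1 had no read in Cas9 MPS1i and 5, 10 and 1 reads in cGASKO MPS1i (edgeR adjusted p = 0.14). CDX2 was between 0.22 and 0.52 CPM in Cas9 MPS1i and between 0 and 0.16 CPM in cGASKO MPS1i, without overlap and with a log2 fold change of −2.39 (SE 0.94, edgeR adjusted p = 0.20).

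The calls in SK-GT-4 rested on few libraries. In DMSO, none of the 4 genes was called when any 1 of the 3 Cas9 DMSO replicates or cGASKO DMSO replicate 3 was left out, or when the batch block was dropped (edgeR adjusted p = 0.014 for HNF4A and TFF1, 0.020 for MUC13 and 0.049 for AGR2). Without each of those 4 libraries, the log2 fold changes of AGR2 (3.15 to 3.47), HNF4A (3.12 to 3.81) and TFF1 (5.41 to 5.63) kept their sign, with adjusted p of 0.018 to 0.070, and MUC13 had adjusted p of 0.014 to 0.070. Between 1 and 2 of the 4 were called without cGASKO MPS1i replicate 1, 2 or 3. AGR2 missed the threshold without Cas9 MPS1i replicate 3 (adjusted p = 0.018), and MUC13 without cGASKO DMSO replicate 2 (adjusted p = 0.013). The size of the change depended on the batch as well, with TFF1 at 6.18 without cGASKO DMSO replicate 2. Without cGASKO DMSO replicate 1, the library that stood apart, AGR2 was at 2.29 (adjusted p = 0.0068), TFF1 at 4.89 (0.0011) and HNF4A at 3.63 (8.6e-04), and MUC13 was called (0.0057).

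Genes of neighboring lineages were read in the same clones, and those named here as called in DMSO were also called without cGASKO DMSO replicate 1. The members' calls also held without that library but were lost without others. Fits of these list genes in DMSO without those other libraries are not given. SPDEF, an ETS factor needed for goblet cell maturation, had 0.31, 1.27 and 0.74 CPM in SK-GT-4 Cas9 DMSO and 12.9, 18.7 and 29.1 CPM in cGASKO DMSO (log2 fold change 4.75, SE 0.42, edgeR adjusted p = 1.6e-04). It was the 1 gene called among 11 tested goblet and secretory genes, and it was also called in MPS1i (3.97, SE 0.41, edgeR adjusted p = 4.4e-04). Of 9 tested gastric genes, 2 were called in each treatment, GKN2 and CLDN18. GKN2, a gastrokine of gastric surface cells, had 0.04 to 0.05 CPM in Cas9 DMSO and 0.70, 6.12 and 11.6 CPM in cGASKO DMSO (edgeR adjusted p = 2.5e-04). CLDN18, a tight junction protein of stomach and lung, had at most 0.05 CPM against 0.06, 1.34 and 6.77 CPM (edgeR adjusted p = 0.0048). In Cas9 DMSO both genes lay under the floor of 3 counts per library (0.111 to 0.153 CPM there). Their being tested may so rest on the knockout libraries, where they are higher. In MPS1i, CLDN18 missed the threshold without cGASKO MPS1i replicate 1 (adjusted p = 0.018). By edgeR, none of 12 tested transcription factors, 13 brush border genes, 5 other transmembrane mucins or 3 crypt genes was called in either treatment, while 2, 2, 2 and 1 of them in DMSO and 4, 7, 4 and 0 in MPS1i had an unadjusted p under 0.05. Of all 22782 genes tested, 3978 in DMSO and 4203 in MPS1i had such a p.

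Markers of epithelium differed between the same clones. CDH1, which encodes E-cadherin, had 3.83, 13.8 and 9.66 CPM in Cas9 DMSO and 21.4, 174 and 202 CPM in cGASKO DMSO (log2 fold change 3.53, SE 0.47, edgeR adjusted p = 0.0020). EPCAM had 45.1 to 48.6 against 205 to 429 CPM (log2 fold change 2.71, SE 0.41, edgeR adjusted p = 0.0039). Both are among the 5 simple epithelial genes, whose summed level was 3678 to 5063 CPM in Cas9 DMSO and 9637 to 19356 CPM in cGASKO DMSO. Of the squamous list, 11 of 13 genes were tested and 1 was called in DMSO, KRT4 (3.88, 38.9 and 11.6 against 15.7, 131 and 132 CPM; log2 fold change 2.36, edgeR adjusted p = 0.0057). The summed squamous level was 57.4 to 102 CPM in Cas9 DMSO and 57.7 to 288 CPM in cGASKO DMSO. The part of these markers in the members' values was not tested.

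Batch 1 of the knockout clone held lower levels of several of these genes than batches 2 and 3, in both treatments. MUC5AC, MUC5B, GKN2, CLDN18, KRT4 and CDH1 followed this pattern, with CDH1 at 21.4 CPM in batch 1 of either treatment and at 174 to 224 CPM in the other batches. MUC5B, a gel-forming mucin, had 1.17, 28.9 and 14.6 CPM in cGASKO DMSO and 1.87, 46.4 and 32.8 CPM in cGASKO MPS1i. The called members HNF4A (4.98 against 26.5 and 13.7 CPM in DMSO) and TFF1 (5.09 against 6.45 and 13.1 CPM in DMSO) were also lowest in batch 1 in both treatments. AGR2 was lowest there in MPS1i and highest, at 958 CPM, in DMSO.

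**Figure D3:**
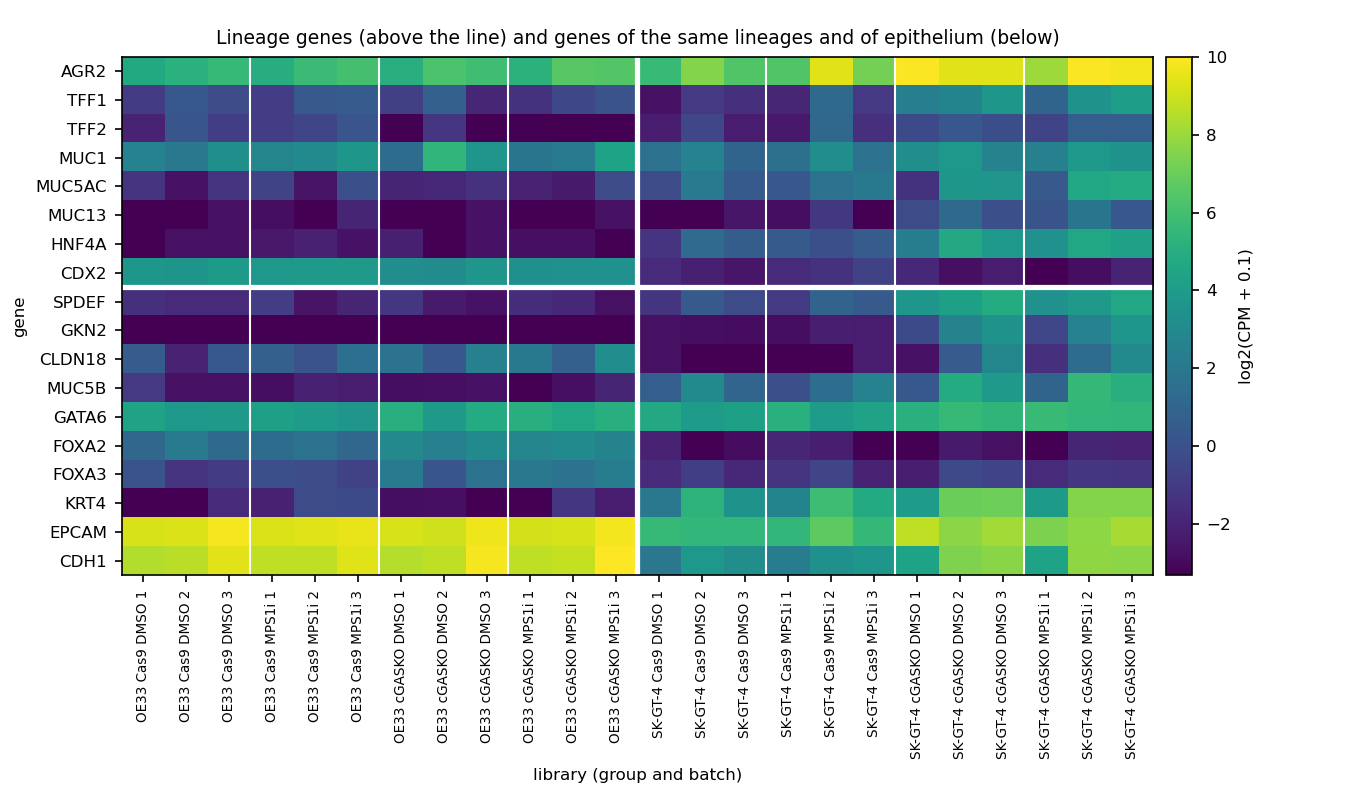
Levels of 8 members (above the line) and of 10 named genes of the lists (below it) in all 24 libraries, as log2(CPM + 0.1). In SK-GT-4 DMSO, AGR2, TFF1, HNF4A, SPDEF, EPCAM and CDH1 are brighter in all cGASKO than in all Cas9 libraries, while in MPS1i the clones overlap in AGR2 (669 CPM in a Cas9 and 267 CPM in a cGASKO library) and TFF1 (2.37 and 1.87 CPM). CDX2 and FOXA2 are bright in OE33 and dark in SK-GT-4.

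Neighboring genes of the same chromosomes were read beside the members. On chromosome 7, the median log2 fold change of 661 other genes with a mean of at least 1 CPM was 0.49 in SK-GT-4 cGASKO against Cas9 in DMSO, where that of all such genes was 0.02. Within 5 Mb of AGR2 it was 0.16 over 24 genes, against 3.24 for AGR2. Around HNF4A on chromosome 20, 60 genes had a median of −0.24, against 3.41 for HNF4A. All 359 other genes of that chromosome, those 60 included, had a median of −0.35. The 68 genes within 5 Mb of TFF1 had a median of −0.01 and the 66 genes around MUC13 one of 0.06.

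**Figure D4:**
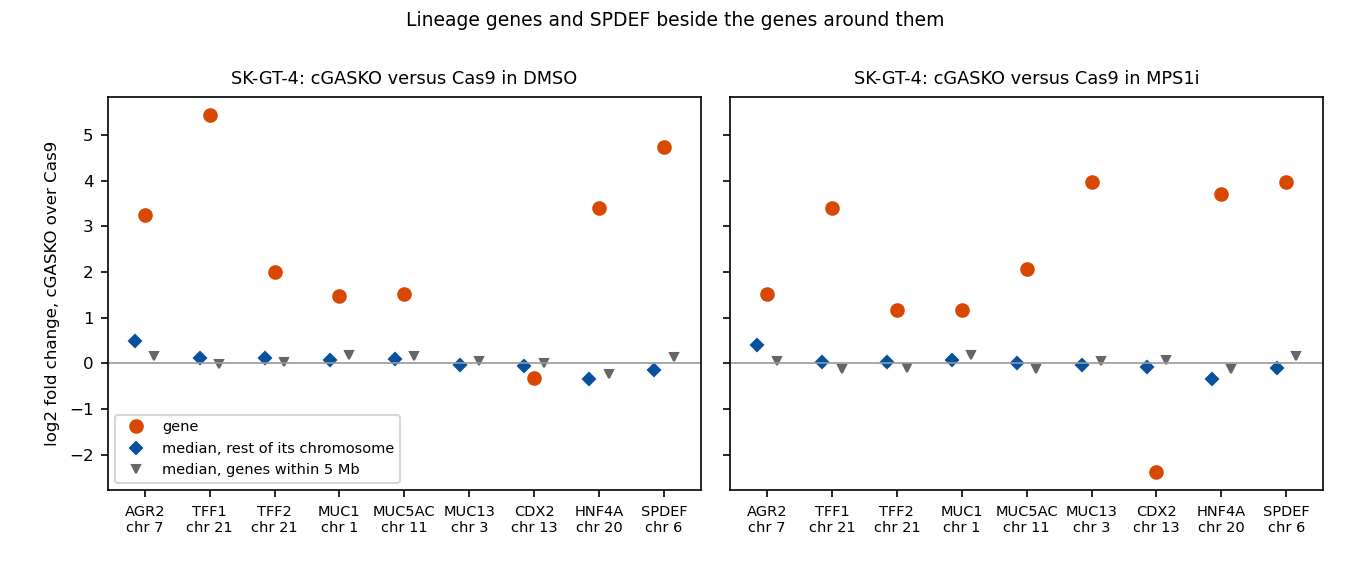
Log2 fold changes of cGASKO over Cas9 in SK-GT-4 for 8 members and SPDEF, beside the median of the other genes of each chromosome (diamonds) and of genes within 5 Mb (triangles), among genes with a mean of at least 1 CPM. MUC13 in DMSO, with 2 reads in Cas9, has no point. The medians lay between −0.35 and 0.49, CDX2 lay at −0.33 and −2.39, and the other genes lay between 1.16 and 5.44.

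The third comparison asks the same of OE33. In DMSO, none of the 9 tested members was called by edgeR, DESeq2 or limma voom (edgeR called 1.47% of 20426 genes tested). AGR2, CDX2 and TFF2 had an unadjusted p under 0.05 in edgeR, as did 3569 of all 20426 genes tested. AGR2 had 27.0, 36.3 and 48.4 CPM in Cas9 and 33.5, 76.3 and 61.1 CPM in cGASKO, higher in 3 of 3 batches although the groups overlapped (log2 fold change 0.54, SE 0.15, 95% interval 0.22 to 0.86, edgeR adjusted p = 0.055). CDX2 was lower in 3 of 3 batches, with 13.1, 11.6 and 15.2 against 9.11, 8.37 and 12.3 CPM (log2 fold change −0.46, SE 0.16, 95% interval −0.79 to −0.14, edgeR adjusted p = 0.11). MUC1 had 5.95, 4.0 and 9.69 CPM in Cas9 and 2.51, 43.7 and 12.1 CPM in cGASKO. Its highest value belonged to the library whose CGAS level went against its label. With that library the log2 fold change of MUC1 was 1.30 (edgeR adjusted p = 0.34), and without it −0.37 (adjusted p = 0.58). Without it AGR2 was at 0.39 (adjusted p = 0.12) and CDX2 at −0.37 (adjusted p = 0.17). With that library, TFF1 was at −0.08 (edgeR adjusted p = 0.97) and MUC5AC at −0.007. HNF4A, MUC13 and VIL1 had at most 3 reads in any of these 6 libraries.

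Under MPS1i, 2.84% of 20426 genes tested were called, and 1 member was among them. TFF2 had 10, 9 and 19 reads in OE33 Cas9 MPS1i, or 0.43, 0.59 and 1.03 CPM, and no read in the 3 cGASKO MPS1i libraries. It was at least 4.64-fold lower in the knockout (against a floor of 3 counts per library, edgeR adjusted p = 0.0067). Of the 6 OE33 cGASKO libraries 1 held TFF2 reads, so the gene passed the filter only through the Cas9 libraries, where it is higher. In DMSO, TFF2 had 3, 20 and 9 reads in Cas9 and 0, 7 and 0 in cGASKO (edgeR adjusted p = 0.16), and the 7 reads came from the library labelled cGASKO DMSO replicate 2. Without that library the DMSO comparison had an adjusted p of 0.020. In MPS1i, the call was lost without Cas9 DMSO replicate 3 (adjusted p = 0.015), Cas9 MPS1i replicate 1 or 3 (0.014 and 0.041), any cGASKO MPS1i replicate (0.019, 0.058 and 0.034), or the batch block (0.12).

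AGR2 had 31.5, 55.0 and 66.3 CPM in Cas9 MPS1i and 38.1, 91.6 and 86.1 CPM in cGASKO MPS1i (log2 fold change 0.45, SE 0.15, edgeR adjusted p = 0.081). CDX2 had 13.5, 14.6 and 14.7 against 10.2, 10.8 and 10.6 CPM. These groups did not overlap, but the difference of −0.45 (SE 0.15) had an edgeR adjusted p of 0.084. TFF1, at 0.28 to 1.36 CPM, and MUC5AC, at 0.07 to 0.87 CPM, were low in both clones. MUC1, MUC5AC and TFF1 had edgeR adjusted p values of 0.91, 0.59 and 0.51.

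Of the forkhead factors FOXA1, FOXA2 and FOXA3, the last pair was called in OE33. FOXA2 had 2.02, 4.31 and 2.37 CPM in Cas9 DMSO and 7.61, 5.52 and 8.32 CPM in cGASKO DMSO (log2 fold change 1.33, SE 0.26, edgeR adjusted p = 0.0077), and FOXA3 had 0.98, 0.31 and 0.40 against 4.21, 1.09 and 3.20 CPM (2.25, SE 0.39, edgeR adjusted p = 0.0035). Without cGASKO DMSO replicate 2 they were at 1.68 (adjusted p = 5.4e-05) and 2.58 (9.4e-05). Both were called in MPS1i as well, at 1.39 and 2.5. FOXA1 was at −0.11 in DMSO and 0.20 in MPS1i (edgeR adjusted p = 0.72 and 0.37). GATA6, a foregut factor on chromosome 18, was called in MPS1i (0.94, SE 0.19, edgeR adjusted p = 0.0059), where 165 other genes of that chromosome had a median of 0.55 and 22 genes within 5 Mb one of 0.68. These were the calls among 12 tested transcription factors. CLDN18 was the 1 gastric gene called in DMSO (1.85, SE 0.33, edgeR adjusted p = 0.0036, and 1.86 with 0.0010 without cGASKO DMSO replicate 2), of 6 tested. By edgeR, none of 6 goblet, 12 brush border or 5 other transmembrane mucin genes was called in either treatment, and 1, 1 and 0 of them in DMSO and 2, 1 and 0 in MPS1i had an unadjusted p under 0.05. Of all 20426 genes tested, 3569 in DMSO and 4347 in MPS1i had such a p. OLFM4, a crypt stem cell marker, was called in MPS1i (−2.27, SE 0.47, edgeR adjusted p = 0.0070), of 6 crypt genes. Of 13 squamous genes, KRT13 was called in MPS1i (−2.0, SE 0.43, edgeR adjusted p = 0.0089). The summed simple epithelial level was 19596 to 20331 CPM in Cas9 DMSO and 19291 to 22543 CPM in cGASKO DMSO.

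The knockout effects of the lines were then compared in a fit of all 24 libraries. TFF1 was the 1 of 9 tested members whose untreated difference between clones differed between lines (0.981% of 25181 genes tested were called). Its effect in OE33 minus that in SK-GT-4 was −5.37 on the log2 scale (SE 0.96, edgeR adjusted p = 0.0021). For AGR2 it was −2.66 (SE 0.62, 95% interval −3.95 to −1.38, edgeR adjusted p = 0.020), for TFF2 −4.36 (edgeR adjusted p = 0.052) and for HNF4A −2.53 (95% interval −6.13 to 1.07, edgeR adjusted p = 0.63), a gene near 0 in OE33. SPDEF, CDH1 and EPCAM were called in the same direction. Without OE33 cGASKO DMSO replicate 2, TFF1 was at −5.85 (adjusted p = 0.0028), AGR2 at −2.63 (0.042), TFF2 at −7.69 (0.020), HNF4A at −1.63 (0.82) and EPCAM at −2.76 (0.0023), while SPDEF (−4.65, 0.018) and CDH1 (−3.24, 0.019) missed the threshold. Without SK-GT-4 cGASKO DMSO replicate 1, AGR2 was at −1.87 (0.043) and TFF1 at −5.04 (0.0021). The TFF1 call was lost without batch 1 (adjusted p = 0.018) or batch 3 (0.14) and without the batch block (0.039), and its value was −6.34 without batch 2.

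The last comparisons ask whether MPS1i changed these genes. By edgeR, DESeq2 and limma voom, none of the 9 tested members was called in any of the 4 settings. With DESeq2 after ComBat-seq, AGR2 was called in OE33 Cas9 (adjusted p = 3.7e-04). Of all genes, edgeR called 0.0049% of 20426 (1 gene) in OE33 Cas9, 0% in OE33 cGASKO, 0% of 22782 in SK-GT-4 Cas9 and 0% in SK-GT-4 cGASKO. The study reports many genes up-regulated by MPS1i in both lines at this threshold, after ComBat correction and by DESeq2. The lack of calls here so does not show that the cells did not respond. Members with an unadjusted p under 0.05 numbered 2, 1, 2 and 0 in that order. AGR2 was higher with MPS1i in 3 of 3 batches in OE33 Cas9 (log2 fold change 0.39, SE 0.15, 95% interval 0.07 to 0.71, edgeR adjusted p = 0.63), in OE33 cGASKO (0.30, 95% interval −0.02 to 0.62, edgeR adjusted p = 0.73) and in the Cas9 cells of SK-GT-4 (1.26, SE 0.54, 95% interval 0.08 to 2.45, edgeR adjusted p = 0.98). In SK-GT-4 cGASKO it was higher in 2 batches and lower in batch 1 (958 against 267 CPM), with a log2 fold change of −0.45 (95% interval −1.66 to 0.76, edgeR adjusted p = 0.97). TFF1 in SK-GT-4 Cas9 also was higher in 3 of 3 batches (1.91, SE 0.79, edgeR adjusted p = 0.98).

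CDX2 in OE33 was bounded closely, with log2 fold changes of 0.08 (95% interval −0.24 to 0.40, edgeR adjusted p = 0.96) in Cas9 and 0.09 (−0.24 to 0.42, edgeR adjusted p = 0.95) in cGASKO. For HNF4A in SK-GT-4 the values were 0.15 (−1.0 to 1.31, edgeR adjusted p = 0.99) and 0.46 (−0.53 to 1.45, edgeR adjusted p = 0.97). VIL1 had 9, 0 and 5 reads in OE33 Cas9 MPS1i and none in Cas9 DMSO (edgeR adjusted p = 0.62), with the overlap with USP37 named above. At an unadjusted p under 0.05, 1420 genes passed in OE33 Cas9, 1420 in OE33 cGASKO, 566 in SK-GT-4 Cas9 and 317 in SK-GT-4 cGASKO. No gene of the other lineage lists was called in any of these comparisons.

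The difference of the MPS1i effect between genotypes was called for no member in OE33 (0% of genes tested) or SK-GT-4 (0%), and neither was its difference between lines in Cas9 cells (0% of 25181). By edgeR, 1, 1 and 0 members had an unadjusted p under 0.05, as did 383, 550 and 397 of all genes, and DESeq2 and limma voom called no member either. For AGR2, the effect in Cas9 minus that in cGASKO was 0.09 in OE33 (95% interval −0.36 to 0.55, edgeR adjusted p = 1) and 1.72 in SK-GT-4 (0.04 to 3.40, edgeR adjusted p = 0.82). In SK-GT-4 these intervals allow differences of several fold.

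**Figure D5:**
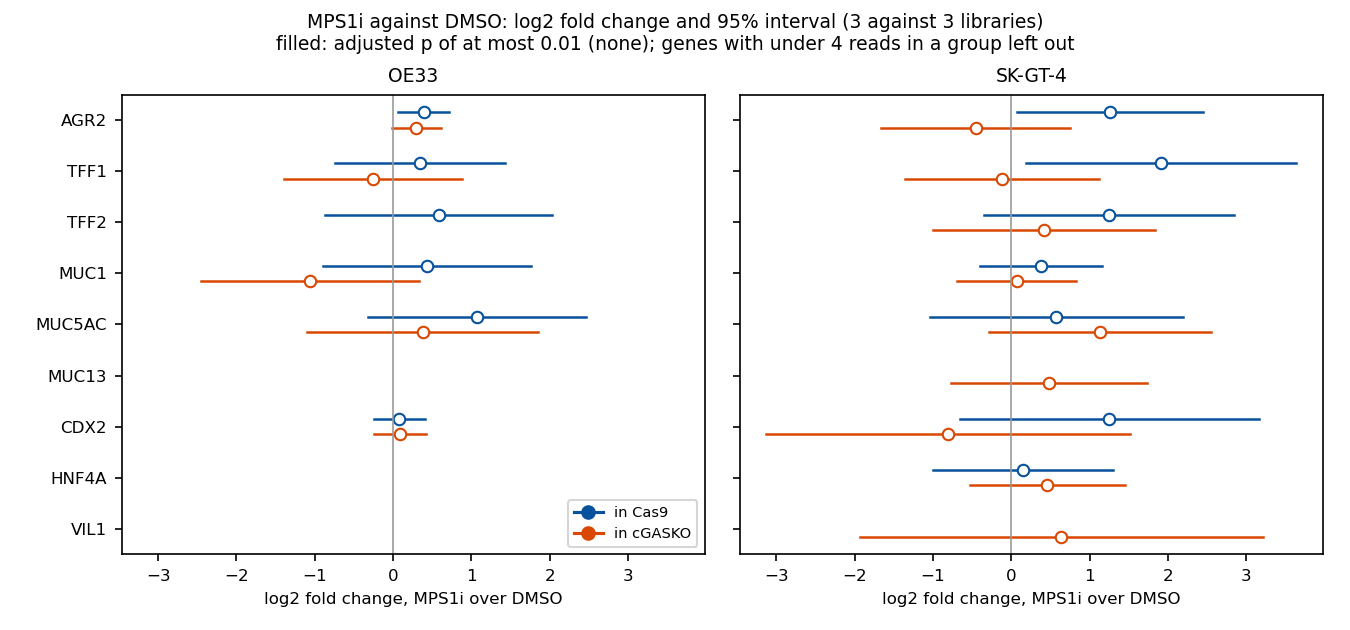
Fitted log2 fold changes of MPS1i over DMSO with 95% intervals, in Cas9 and cGASKO, for OE33 (left) and SK-GT-4 (right), 3 against 3 libraries each, without members that had under 4 reads in a group. All points are open, as none had an adjusted p of at most 0.01. CDX2 in OE33 had intervals within −0.24 and 0.42, against −1.0 to 1.45 for HNF4A in SK-GT-4.

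AGR2 had the highest mean CPM of the members in both lines, and the 3 genes most like it were named for each by Pearson's r over the 12 libraries of a line. In OE33 these were KRT8 (0.895), RAB43P1 (0.886) and CEACAM6 (0.867), and in SK-GT-4 SMIM31 (0.986), TMEM102 (0.978) and NOXA1 (0.975). The libraries share their batches and, in SK-GT-4, fall apart by clone, so these values describe likeness only.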

How the data were processed

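RNA of 24 libraries from OE33 and SK-GT-4 cells was analysed. The authors selected poly(A) RNA and, per the submitters' processing notes, used HISAT2 2.0.5, GRCh38 and featureCounts 1.5.0. The deposited values are raw counts per gene, without normalization. The annotation release and strand setting are not given in the sources used here.

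Genes with a total of at least 5 and reads in at least 4 libraries were fitted in R 4.3.3 with edgeR 4.0.16 (TMM factors, a term per group, a block per batch), per line and over both lines, and tested two-sided by its quasi-likelihood test with Benjamini-Hochberg adjustment over all genes tested. Genes were called at 0.01, the study's threshold. The fit was also run on data simulated without batch effects, with changes only in genes of at least 1 CPM. That run does not cover lower genes or differences between batches. Fold changes carry edgeR's small prior count. Intervals are stated at 95%. The SE of a fold change is its absolute value over the root of the test's F statistic, and its interval is built from that SE. Coverage at low counts was not tested, and count-based limits (3 counts) cover counting error only.

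The labels state the batch, so equal replicate numbers pair libraries. Deviations from group means of the same genotype and batch correlated at a median of 0.65 (OE33) and 0.43 (SK-GT-4), and those of different genotypes at 0.49 and 0.27, with 11 and 9 of 12 pairs over 0.1. The lowest pair of different genotypes in SK-GT-4 was at −0.67, so not all libraries of a batch deviated together. Within groups, none of 24 pairs of libraries held identical counts, and pairs across groups were not compared. The study calls the replicates biological.

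The members, lists and tests were chosen with earlier results of these data known. Named list genes were, per list and comparison, up to 3 called genes with the largest change and a mean of at least 1 CPM, and others that bear on cell type. Alternatives were other filters, scalings, thresholds and blocks, DESeq2 1.42.0, limma 3.58.1 (voom), ComBat-seq (sva 3.50.0) and libraries left out. A transcription factor counted in its list is not reported here. Robust dispersion estimates and most single-library fits were added after seeing the data.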

Additional observations from a re-analysis of the deposited data

Results flagged for a closer look

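4 named genes had a difference between clones in DMSO that itself differed between the cell lines (edgeR's quasi-likelihood test of the interaction, adjusted p of at most 0.01). The effect in OE33 minus that in SK-GT-4 was −5.37 on the log2 scale for TFF1 (SE 0.96; adjusted p = 0.0021), −5.01 for SPDEF (SE 1.02; adjusted p = 0.0070), −3.49 for CDH1 (SE 0.69; adjusted p = 0.0056) and −2.86 for EPCAM (SE 0.44; adjusted p = 6.2e-04). Each gene was higher in 3 of 3 SK-GT-4 batches in cGASKO. In OE33, TFF1 was higher in cGASKO in 2 of 3 batches, 1 of them batch 2, whose cGASKO library had a CGAS level against its label. Without that library, SPDEF (−4.65, adjusted p = 0.018) and CDH1 (−3.24, adjusted p = 0.019) missed the threshold, and TFF1 (−5.85, adjusted p = 0.0028) and EPCAM (−2.76, adjusted p = 0.0023) passed it.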

How the results depend on the processing

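No called member changed sign under any alternative. The counts of members called below are given without the share of all genes called in the same fit. They so do not set the members apart from other genes. With an adjusted p of at most 0.05 instead of 0.01, members called rose from 1 to 3 in SK-GT-4 cGASKO against Cas9 in MPS1i, from 4 to 5 in DMSO, from 2 to 4 between lines and from 1 to 2 for the line difference of the knockout effect. Without the filter, 1 was called in place of 0 for MPS1i in OE33 cGASKO and for the OE33 interaction, 2 in place of 0 for OE33 cGASKO in DMSO, and 3, 4 and 3 in SK-GT-4 MPS1i, between lines and for the line difference. With edgeR's own filter, TFF2 in OE33 MPS1i was lost (0 called). DESeq2 called 0 there, giving TFF2 no adjusted p, and 3 each for SK-GT-4 MPS1i and the line difference, where limma voom called 6 and 5, and 4 between lines. ComBat-seq called 1 each for MPS1i in OE33 Cas9 and cGASKO. In Cas9 this was AGR2 (DESeq2 after ComBat-seq, adjusted p = 3.7e-04). In cGASKO, AGR2 and MUC1 each passed in 1 alternative. MUC1 was at −1.06 there in the main fit, with log2 differences of −3.34 in batch 2 but 0.50 and 0.81 in batches 1 and 3. Batch 2 holds the cGASKO DMSO library with a CGAS level against its label, where MUC1 had 43.7 CPM. MUC1 was also the call without the filter in the OE33 interaction, and 1 of the 2 between OE33 clones in DMSO. Both comparisons include that library. Without the replicate block that pairs batches, 0 were called for OE33 MPS1i clones, SK-GT-4 DMSO clones and the line difference, and that block changed no other count. Leaving out a batch or a library gave 0 to 1 calls for OE33 clones in MPS1i, 0 to 4 for SK-GT-4 clones in DMSO, 0 to 3 in MPS1i, 2 to 4 between lines and 0 to 3 for the line difference. Such fits have fewer samples. Adjusted p of AGR2 in SK-GT-4 DMSO ranged from 8.6e-07 to 0.32. Genes under about 3 counts per library were limited by depth.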
